A study of Mus musculus with 6 samples.

Results

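The collagens and the enzymes that modify them were followed in mouse dental pulp as a set of 44 genes, 30 collagen chains and 14 enzymes and helper proteins. Members were the probe sets whose platform gene symbol was one of the 44 names. Probe sets naming a single member existed for 42 of them, among 18193 genes named in this way on the array. Loxl2 was named only by probe sets that also name another gene, no probe set named Adamts2, and neither is described further. A gene was tested if a probe set was called Present, the array software's detection call, on at least 3 of the 6 arrays, and 37 of the 44 members were among the 12250 genes tested. The 7 others were those 2, Col4a3, Col4a4, Col4a6, Col10a1 and Col15a1. Each tested gene was represented by its brightest detected probe set.

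RNA of 3 arrays came from mice of genotype Ring1a-/-;Ring1b cko/cko;CreERT2, injected with 4-hydroxytamoxifen (OHT) at 40 mg/kg on postnatal days 9 and 13, and these are called deletion. The 3 control arrays came from Ring1a-/-;Ring1b flox/flox;CreERT2 mice injected with corn oil on the same days. Pulp was taken at postnatal day 17 in both groups, both lacked Ring1a, and all carried the tamoxifen-inducible Cre, whose promoter the labels do not give. Drug and deletion therefore cannot be told apart. Ring1a and Ring1b, encoded by Ring1 and Rnf2, are the ubiquitin ligases of Polycomb repressive complex 1, which keeps developmental genes silent, often at promoters rich in CG dinucleotides.

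Collagens are trimers of chains wound into a triple helix. Fibrillar chains build the tensile fibrils of pulp and dentin, type IV chains form the sheet of basement membranes, fibril-associated chains (FACIT) decorate fibrils, and transmembrane chains sit in the cell surface. Inside the cell prolyl and lysyl hydroxylases modify the chains and the chaperone Hsp47 guards the helix. Outside it proteases trim the ends, and lysyl oxidases cross-link the fibrils. Dentin matrix is largely type I collagen made by odontoblasts.

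The Rnf2 probe set used had signals of 3165, 3550 and 2831 on the deletion arrays, against 2693, 2440 and 2233 on the control arrays. The groups did not overlap, the deletion arrays differed from control by a log2 value of 0.37 ± 0.17 (SE), and the limma adjusted p was 0.33. A second Rnf2 probe set, also Present on every array, gave 0.53. Its signals were 1507, 1860 and 1744 in deletion, against 1017, 1326 and 1195 in control, without overlap. Whether these probes read the floxed exons is not known here, so these values do not check the labels, and the Ring1 probe set was Present on no array. Between 53.8% and 57.9% of probe sets were Present per array. Control probe sets showed the replicate 1 arrays apart: the log2 ratio of 3' to 5' signal for Actb was 1.88 on deletion replicate 1 and 2.69 on control replicate 1, against 0.91 to 0.98 on the other deletion arrays and 0.87 to 0.96 on the other control arrays. Of the odontoblast markers 7 of 8 were detected, Dspp and Dmp1 among them, with a summed signal of 91590 to 101974 in deletion and 89860 to 110846 in control. In that list 1 marker passed: Tubb3 fell, at -1.03 ± 0.19 (SE; limma adjusted p = 0.0258), Nes had a difference of -0.55 that did not pass (0.14, but 0.0433 with the replicate block), and Ibsp one of 1.87 that did not pass (0.0642, but 0.00122 with the block). Pulp fibroblast markers, 8 of 8 detected, had a summed signal of 38063 to 52585 in deletion and 38913 to 53918 in control. Of these markers 1, Prrx1, rose. Means were higher in deletion for 6 of the 8 and lower for 2, with a median log2 difference of 0.43. The brightest, Vim, was among the lower ones at -0.33. With the replicate block 3 rose and none fell. They were Prrx1, Pdgfrb (0.999, limma adjusted p = 0.25, but 0.00145 with the block) and Twist1 (0.81, 0.281, but 0.0479). Dental epithelium markers were detected as well, 11 of 11, with a summed signal of 50333 to 192709 in deletion and 105877 to 147366 in control. None of them passed. With the block 1 rose, Klk4 (0.98, limma adjusted p = 0.082, but 0.0114 with the block), and 3 fell. Those were Mmp20 (-1.08, 0.0583, but 0.00293), Cdh1 (-1.06, 0.29, but 0.0114) and Epcam (-1.08, 0.271, but 0.00151). Over all genes tested 6.44% rose and 4.19% fell with the block. Cartilage markers Acan, Matn1 and Comp, and 5 of 8 skeletal muscle markers, were not detected on 3 arrays. In pulp as a whole, a change in the number of cells of a type and a change of RNA per cell cannot be told apart.

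Among the 37 tested members, 3 rose in deletion, the cross-linking enzyme Loxl1 and the collagen chains Col8a2 and Col4a5, and 1 fell, Col24a1. Across all 12250 genes 1.89% rose and 0.759% fell (2.65% in either direction) at the same threshold, an adjusted p under 0.05. The chains of type I collagen, the main protein of dentin, had nearly equal signals in the 2 groups on the brightest probe sets, which stand for these genes. Collagen chains had higher means in deletion in 21 of 25 tested cases, with a median log2 difference of 0.48, whereas the 12 enzymes and helpers divided into 6 and 6 with a median of -0.05. Over all genes tested 52.5% had a higher mean in deletion, and the median was 0.02. With the replicate numbers of the titles as a block in the fit, 11 members rose and 2 fell, while 6.44% of all genes rose and 4.19% fell.

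**Figure D1:**
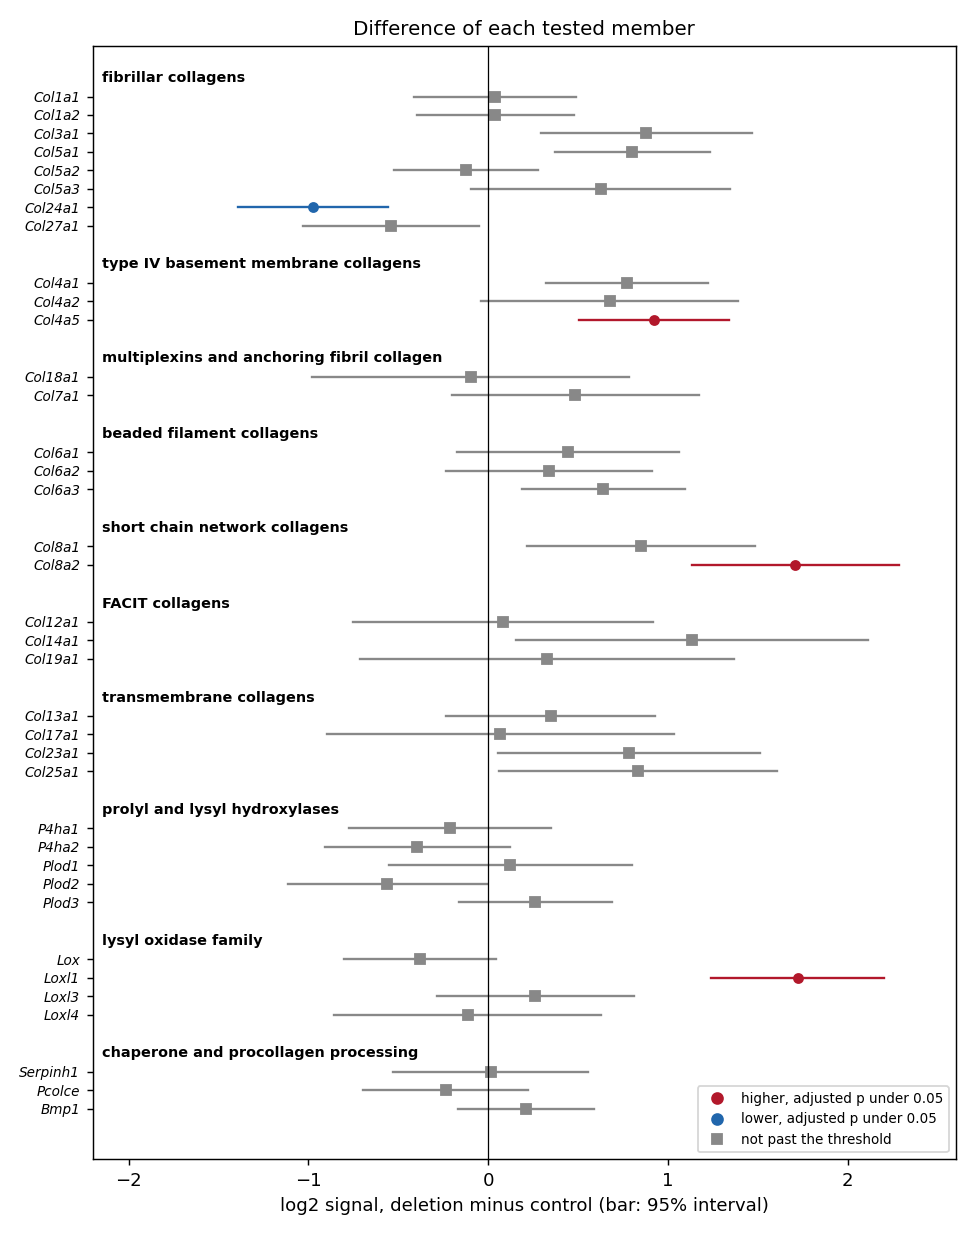
Difference in log2 signal (deletion minus control) of the 37 tested members, grouped by class, with 95% intervals of the limma fit (3 arrays per group). Loxl1, Col8a2 and Col4a5 lie to the right of 0 and Col24a1 to the left past the adjusted threshold of 0.05, while most collagen chains that did not pass lie to the right and the hydroxylases lie on both sides.

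Loxl1 codes for a lysyl oxidase that in mice is needed to maintain elastic fibres and that cross-links collagen and elastin. Its signals were 2193, 1571 and 1654 on the deletion arrays, against 677, 470 and 498 on the control arrays. All 3 deletion arrays were above the highest control array, and the 3 replicate pairs differed by 1.70, 1.74 and 1.73 on the log2 scale. The gene rose 3.30-fold (log2 1.72 ± 0.21, SE), with 0.00603 as its adjusted p in limma. It passed in all 17 alternative analyses, with adjusted p between 0.000192 and 0.0351.

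The other lysyl oxidases did not pass. Lox, the founding enzyme of the family, had signals of 20571, 15465 and 19850 in deletion, against 28084, 24376 and 20235 in control. The groups overlapped, and the log2 difference was -0.38 ± 0.19 (SE), with an adjusted p of 0.398 in limma. Its 3 detected probe sets gave -0.47 to -0.38. Loxl3 differed by 0.26 ± 0.24 (SE) and Loxl4 by -0.11 ± 0.33. The 95% interval for Loxl4 ran from -0.86 to 0.63, and its 2 detected probe sets had opposite signs. Within the family, then, the log2 difference ranged from -0.38 for Lox to 1.72 for Loxl1, with a median of 0.07.

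Col8a2 encodes the alpha 2 chain of type VIII collagen, a short chain that forms hexagonal networks under endothelia and in the cornea. Its 300-base promoter window, 250 bases before to 50 after the RefSeq start, lies at chr4:126286544-126286843 on the plus strand (GRCm38.p6). It is shown because the gene rose and the window is rich in CG dinucleotides, given in capitals, of which it holds 32; 9.52% of the 32851 promoter windows in the table hold as many.
Col8a2: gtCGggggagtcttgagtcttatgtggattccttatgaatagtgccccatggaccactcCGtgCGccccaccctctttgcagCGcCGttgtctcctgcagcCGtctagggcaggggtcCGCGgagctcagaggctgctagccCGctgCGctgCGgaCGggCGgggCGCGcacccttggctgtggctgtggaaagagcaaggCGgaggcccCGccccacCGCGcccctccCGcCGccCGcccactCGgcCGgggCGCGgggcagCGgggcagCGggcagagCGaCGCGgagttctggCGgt
Binding of the complex at these windows was not measured. The windows of Loxl4 and P4ha1 also hold 32, and these genes had lower means in deletion (-0.11 and -0.21) without passing. Those of Col4a1 (37), Col5a1 (34) and Col4a2 (33) hold more, and these genes had higher means without passing. Loxl1, the other member with a rise above 3-fold, had no window.

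Signals of Col8a2 were 2436, 2006 and 1283 in deletion, against 671, 475 and 564 in control. The lowest deletion array was above the highest control array. Col8a2 rose 3.27-fold (log2 1.71 ± 0.26, SE; limma adjusted p = 0.0106), and the call was lost without control replicate 2 (adjusted p = 0.0635). Its partner chain Col8a1 had signals of 1023, 583 and 539 in deletion, against 486, 331 and 342 in control, with no overlap. It did not pass at 0.85 ± 0.28 (SE; limma adjusted p = 0.173, but 0.0121 with the replicate block and 0.0121 to 0.483 over the alternatives). Both detected Col8a1 probe sets gave nearly the same value, 0.85 and 0.86. Col10a1, the short chain of hypertrophic cartilage, was Present on no array.

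**Figure D2:**
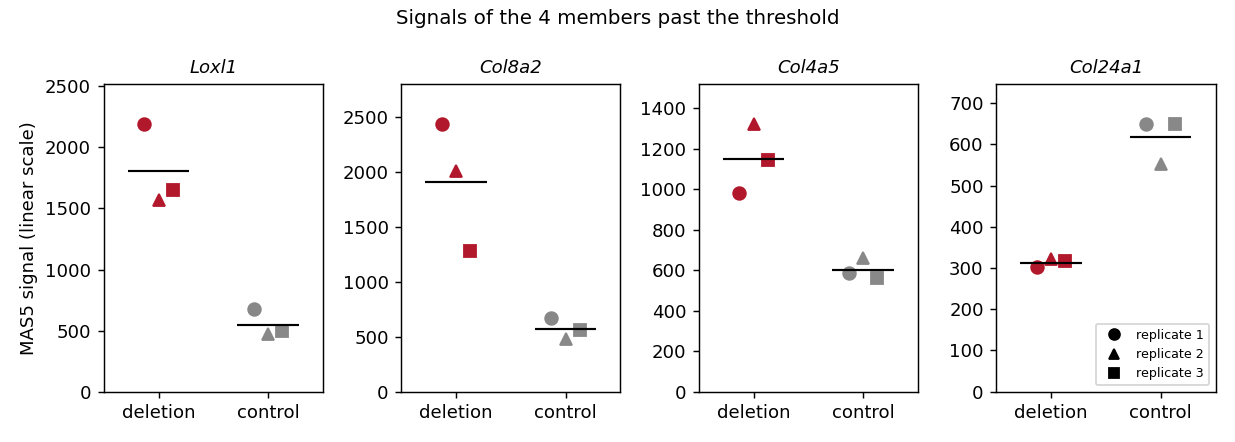
MAS5 signal on a linear scale from 0 for the 4 members past the threshold, on the 3 deletion arrays (left) and the 3 control arrays (right), with lines at the group means and a marker shape for each replicate number. The groups do not overlap in any of the 4 genes: Loxl1, Col8a2 and Col4a5 are higher in deletion and Col24a1 is lower.

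Among the type IV chains of basement membranes, Col4a5 rose and no detected chain had a lower mean in deletion. Col4a5, whose human counterpart is mutated in Alport syndrome, lies on chromosome X head to head with Col4a6, on opposite strands, with RefSeq starts 1343 bases apart. Its window at chrX:141475169-141475468 (plus strand, GRCm38.p6) is shown for contrast with that of Col8a2, since it holds 11 CG dinucleotides, a number that 41.4% of all windows reach.
Col4a5: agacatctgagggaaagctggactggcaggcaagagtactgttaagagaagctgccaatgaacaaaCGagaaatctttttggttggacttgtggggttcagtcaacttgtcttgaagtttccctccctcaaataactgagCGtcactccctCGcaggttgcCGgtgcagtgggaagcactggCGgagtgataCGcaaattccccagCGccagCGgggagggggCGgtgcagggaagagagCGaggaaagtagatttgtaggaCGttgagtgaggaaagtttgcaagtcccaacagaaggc
Signals of Col4a5 were 983, 1324 and 1144 in deletion, against 585, 662 and 562 in control, and the groups lay apart. The gene rose 1.90-fold (log2 0.92 ± 0.19, SE; limma adjusted p = 0.0351), and its second probe set gave 0.75. The Col4a5 call was lost in 7 of 17 alternatives, among them the fits without deletion replicate 2 (adjusted p = 0.109), deletion replicate 3 (0.111), control replicate 1 (0.0652), control replicate 2 (0.118) and control replicate 3 (0.123). The others were the mean of its probe sets (0.069) and the fit with no intensity trend (0.0601).

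Col4a1 and Col4a2 encode the ubiquitous type IV heterotrimer and also share a divergent promoter region: on chromosome 8 their windows overlap by 78 bases on opposite strands. Col4a1 had signals of 8581, 5341 and 5845 in deletion, against 3544, 3840 and 3971 in control, with no overlap. It did not pass at 0.77 ± 0.20 (SE; limma adjusted p = 0.0868, but 0.0171 with the replicate block and 0.0171 to 0.273 over the alternatives). Col4a2 had 2580, 2020 and 1748 in deletion, against 762, 1609 and 1822 in control. Here the groups overlapped and the difference of 0.68 ± 0.32 (SE) rested largely on control replicate 1, the lowest array (limma adjusted p = 0.364). The replicate 1 pair differed by 1.76 on the log2 scale and the other pairs by 0.33 and -0.06. The remaining type IV chains, Col4a3, Col4a4 and Col4a6, were seldom detected. The Col4a4 probe set called most often was Present on 2 deletion arrays and on none of control, with signals of 96.2, 166 and 376 in deletion, against 32.7, 59.3 and 30.6 in control. Col4a3 and Col4a6 were each Present on 1 deletion array and on no control array. Endothelial markers, read beside these vessel-rich chains, had a median log2 difference of 0.09 over 7 detected of 8 (not Pecam1), none of which passed. Their summed signal was 2868 to 3027 in deletion and 2105 to 3493 in control. Pericyte and smooth muscle markers had a median of -0.07 over 7 detected of 8 (not Myh11), none of which passed. With the replicate block Cspg4 rose (0.72, limma adjusted p = 0.124, but 0.032 with the block). Acta2 (-0.86, 0.0512, but 0.00266) and Tagln (-0.90, 0.137, but 0.00681) fell, where 6.44% of all genes rose and 4.19% fell.

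The only member that fell was Col24a1, a fibrillar chain of developing bone. Its promoter window at chr3:145292222-145292521 (plus strand, GRCm38.p6) is shown as that of the member lower in deletion. In capitals stands the cAMP response element TGACGTCA, which reads the same on both strands and was looked for after the sequence had been seen. It occurs in 1.79% of the 32851 windows and in no other of the 28 tested members that have a window.
Col24a1: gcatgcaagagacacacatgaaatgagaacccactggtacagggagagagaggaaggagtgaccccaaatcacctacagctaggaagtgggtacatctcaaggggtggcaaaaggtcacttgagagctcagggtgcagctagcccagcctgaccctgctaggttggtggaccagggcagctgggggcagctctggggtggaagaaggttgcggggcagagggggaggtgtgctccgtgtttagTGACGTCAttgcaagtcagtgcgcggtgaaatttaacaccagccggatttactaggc
The match describes letters only. The window holds 6 CG dinucleotides, against a median of 7 over all windows. Over the 28 tested members that have a window, each counted once, the median was 17.

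Col24a1 signals were 302, 321 and 317 in deletion, against 649, 552 and 650 in control, the narrowest spread of the 4 called genes in deletion. The gene was 1.97-fold lower in deletion (log2 difference -0.97 ± 0.18, SE; limma adjusted p = 0.0285). Leaving out any single array ended the Col24a1 call, with adjusted p from 0.0581 to 0.111, while the log2 difference stayed between -1.05 and -0.94. Without both replicate 1 arrays its adjusted p was 0.0519. The array carries a single probe set for it. Col27a1, the other chain of this short-helix fibrillar subgroup, had 6562, 4172 and 3939 in deletion, against 7917, 6476 and 6458 in control. The groups overlapped slightly and the difference of -0.54 ± 0.22 (SE) did not pass (limma adjusted p = 0.276, but 0.0346 with the replicate block and 0.0339 to 0.553 over the alternatives). Both detected Col27a1 probe sets were lower in deletion.

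The major fibrillar chains differed among themselves. Col1a1 had signals of 39167, 30709 and 39169 in deletion, against 43467, 35526 and 28186 in control. Its difference was 0.04 ± 0.20 (SE) with a 95% interval of -0.41 to 0.49. Its partner Col1a2 gave 0.04 ± 0.19 with an interval of -0.39 to 0.48. These signals approach the brightest on the arrays, 51639 to 69152, where a response can flatten. A far dimmer Col1a2 probe set, with signals of 580, 1184 and 872 in deletion, against 410, 600 and 651 in control, gave a log2 difference of 0.63 with overlapping groups. The third Col1a2 probe set, also bright, gave 0.16, and the mean of all 3 gave 0.28 (limma adjusted p = 0.509). Col5a2 also overlapped between the groups, at -0.12 ± 0.18 (SE).

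Type III collagen and the alpha 1 chain of type V, which form thinner fibrils with type I, lay higher in deletion without passing. Col3a1 had signals of 30689, 28096 and 39029 in deletion, against 26103, 12831 and 16099 in control, without overlap, though control replicate 1 came close to the deletion arrays. The difference of 0.88 ± 0.26 (SE) had a limma adjusted p of 0.125, against 0.02 with the replicate block and 0.0064 to 0.419 over the alternatives. A dimmer Col3a1 probe set gave 1.61. Col5a1 had signals of 9914, 7509 and 7659 in deletion, against 5492, 5008 and 3908 in control, with no overlap. Its difference was 0.80 ± 0.19 (SE; limma adjusted p = 0.0643, against 0.0049 with the replicate block and 0.0049 to 0.208 over the alternatives). Its 3 detected probe sets ranged from 0.80 to 1.77. Col5a3 was dim, 135, 109 and 126 in deletion, against 78.9, 103 and 61.4 in control, without overlap, and did not pass (limma adjusted p = 0.416). Over the 8 fibrillar chains the median log2 difference was 0.04, with 3 chains apart and higher and 1 apart and lower. Among all genes tested 12.2% lay apart and higher and 8.64% apart and lower.

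**Figure D3:**
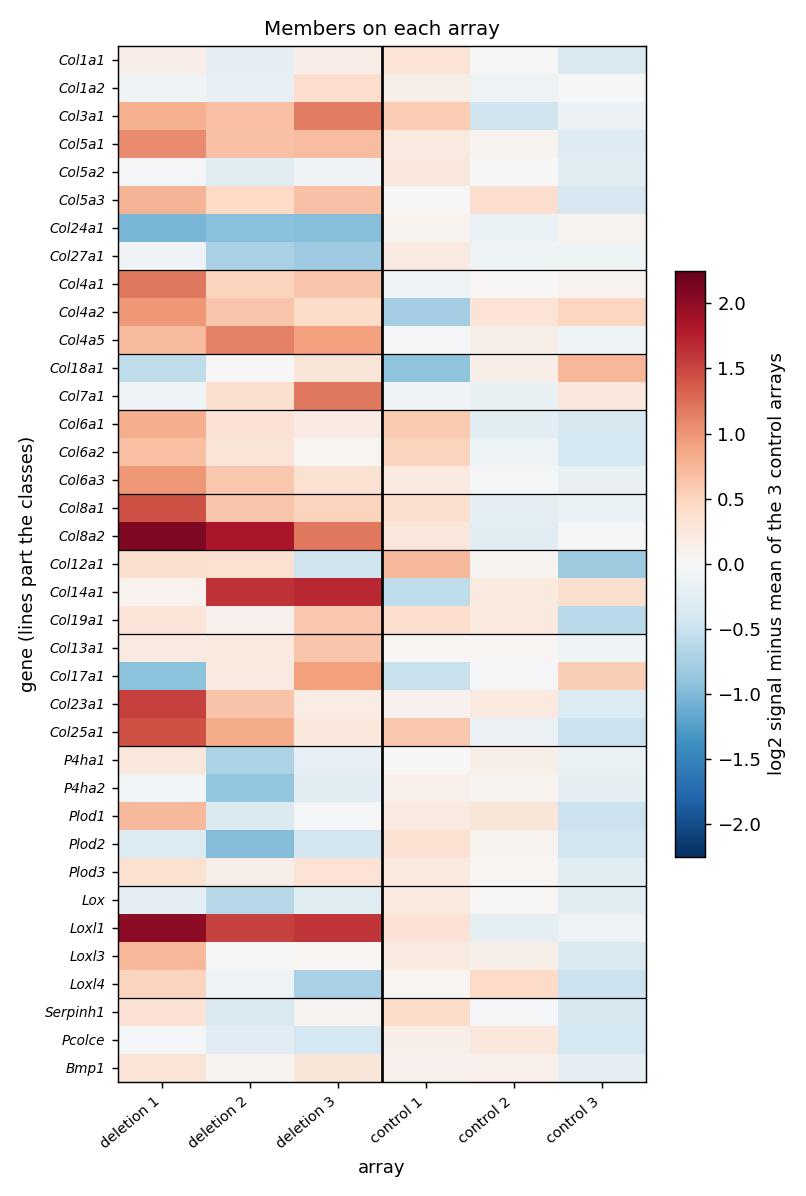
Log2 signal of the 37 tested members on each array minus the mean of the 3 control arrays, deletion arrays left of the vertical line, classes parted by horizontal lines. Loxl1 and Col8a2 are high on all 3 deletion arrays, Col24a1 is low on all 3, and many members are brightest on the replicate 1 array within a group.

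The beaded-filament chains of type VI collagen, which link fibrils to cells, were all higher on average. Col6a3 had signals of 5069, 3932 and 3303 in deletion, against 3013, 2511 and 2296 in control, without overlap. Its difference of 0.64 ± 0.20 (SE) did not pass (limma adjusted p = 0.147, but 0.0114 with the replicate block and 0.0114 to 0.419 over the alternatives). Col6a1 and Col6a2 gave 0.44 ± 0.27 and 0.34 ± 0.26 with overlapping groups. In each group the replicate 1 array was the highest for all 3 chains.

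Of the FACIT chains, Col14a1, found around mature fibrils, had signals of 294, 862 and 908 in deletion, against 188, 324 and 358 in control. Deletion replicate 1 lay among the control arrays. The difference of 1.13 ± 0.44 (SE) did not pass (limma adjusted p = 0.25). Col14a1 passed with the replicate block (0.00701), with array quality weights (0.0271), without both replicate 1 arrays (0.0119) and without deletion replicate 1 (0.0292), and its adjusted p spanned 0.00701 to 0.511 over the alternatives. Col12a1 overlapped, at 0.08 ± 0.37 (SE), and Col19a1 was dim at 0.33 ± 0.46. A dimmer detected Col12a1 probe set gave 0.50 without overlap, with signals of 328, 328 and 433 in deletion, against 230, 278 and 257 in control.

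Among the transmembrane chains Col25a1, which in mice is needed for motor innervation of muscle, had signals of 3078, 2022 and 1344 in deletion, against 1730, 1045 and 818 in control. The groups overlapped, yet each deletion array was above the control array of its number. The difference of 0.83 ± 0.34 (SE) did not pass (limma adjusted p = 0.289, but 0.00427 with the replicate block and 0.00427 to 0.597 over the alternatives). Col23a1 was similar, 0.78 ± 0.32 (SE), with an adjusted p of 0.291 in limma and 0.035 with the replicate block (0.035 to 0.564 over the alternatives). The replicate 1 pair differed by 1.45 and the other pairs by 0.43 and 0.47. Col13a1, a chain of cell adhesion sites, gave 0.35 ± 0.26 (SE). Col17a1, a chain of the hemidesmosomes that anchor epithelium, had signals of 1675, 3635 and 6008 in deletion, against 2243, 3061 and 4627 in control. Its difference was 0.07 ± 0.43 (SE). Chosen after its values were seen, the basal keratin Krt14 ran the same way over the arrays, with log2 signals of 12.15, 13.44 and 14.47 in deletion and 12.68, 13.25 and 13.66 in control. Krt14 differed by 0.15, but the 11 epithelial markers divided into 4 with higher and 7 with lower means in deletion. Cdh1 at -1.06 and Epcam at -1.08 were among the lower ones. Mmp20 did not follow the order of Krt14, with 13.44, 12.59 and 12.71 in deletion and 14.18, 14.11 and 13.67 in control. The part of the epithelial share in the Col17a1 signal was not tested.

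Other chains of basement membranes lie outside type IV. Col7a1, the anchoring fibril under epithelia, had 607, 830 and 1471 in deletion, against 610, 579 and 766 in control, and did not pass at 0.48 ± 0.30 (SE; limma adjusted p = 0.532). Col18a1, the precursor of endostatin, gave -0.10 ± 0.39. Col15a1 was Present on 1 array of each group and was not tested.

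None of the 5 hydroxylases passed, and their median log2 difference was -0.21. Plod2, the lysyl hydroxylase of the telopeptides, had signals of 8558, 5373 and 7976 in deletion, against 13437, 11122 and 7875 in control. Control replicate 3 lay among the deletion arrays. The difference of -0.56 ± 0.25 (SE) did not pass (limma adjusted p = 0.324). A second Plod2 probe set gave -0.83 without overlap of the groups. The prolyl 4-hydroxylase subunits P4ha1 and P4ha2 gave -0.21 ± 0.25 and -0.39 ± 0.23. The lysyl hydroxylases Plod1 and Plod3, of which Plod3 is also a glycosyltransferase, gave 0.12 ± 0.30 and 0.26 ± 0.19. In each of the 5 the groups overlapped for the probe set used.

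The tested helpers of folding and processing had log2 differences of -0.24 to 0.21. Serpinh1, the chaperone Hsp47, had 21599, 13582 and 18061 in deletion, against 22960, 16737 and 13415 in control, a difference of 0.01 ± 0.24 (SE) with a 95% interval of -0.53 to 0.56. Pcolce, which enhances removal of the C-propeptide, gave -0.24 ± 0.20 with a 95% interval of -0.70 to 0.22. Its second probe set gave -0.36. Bmp1, the protease that removes the C-propeptide, had 3336, 2845 and 3298 in deletion, against 2924, 2967 and 2332 in control, at 0.21 ± 0.17 (limma adjusted p = 0.649). A dimmer detected Bmp1 probe set gave 0.79 with overlapping groups. None of these 3 passed.

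**Figure D4:**
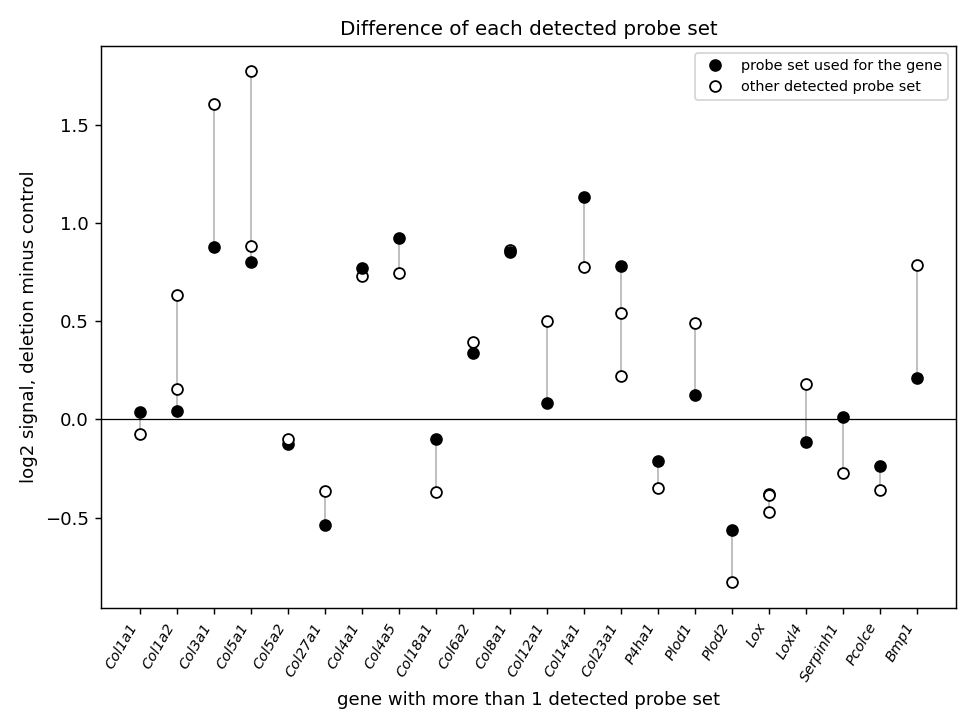
Log2 difference (deletion minus control) of every detected probe set of the 22 members with more than 1, the filled point being the probe set that stood for the gene. Probe sets of Col1a1, Loxl4 and Serpinh1 lie on both sides of 0, and those of Col3a1 and Col5a1 are all above 0 but spread widely.

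Of 82 probe sets naming a member, 63 were detected. In 22 members more than 1 was detected, and in 3 of them, Col1a1, Loxl4 and Serpinh1, the probe sets differed in sign. The widest spread among the chains named here was that of Col5a1. The groups did not overlap in 11 members, 10 higher and 1 lower in deletion, where 12.2% and 8.64% of all genes tested did so. Paired by replicate number, 16 members were higher in all 3 pairs and 5 were lower, against 24.6% and 20.4% of all genes tested. The replicate 1 arrays were often the brightest: in 18 of 37 the replicate 1 array was the highest in both groups, a pattern that 24.8% of all genes tested showed. The part of RNA quality in this was not tested, beyond the fit without both replicate 1 arrays, in which 6 members rose and 1 fell, against 2.72% and 1.36% of all genes tested. Loxl1, Col8a2 and Col4a5 were among the 6, with Col3a1, Col5a1 and Col14a1, and the 1 was Col27a1.

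Other genes that make, cut or bind collagen were read from a list of 73, of which 55 were tested, 6 rose and none fell at the adjusted threshold, where 1.89% and 0.759% of all genes tested did. With the replicate block 14 rose and 1 fell, where 6.44% and 4.19% of all genes did. Among the remaining collagen chains 2 of 9 rose, and 4 with the replicate block. Col2a1, the fibrillar chain of cartilage, had a Present call on each deletion array and on none of control. Its log2 signals were 9.61, 10.24 and 9.75 in deletion, against 6.72, 6.71 and 5.92 in control. The estimated rise was 10.7-fold (log2 3.42 ± 0.29, SE; limma adjusted p = 0.0017), measured against control signals that were not called Present. Col9a1 and Col9a2, chains of the type IX collagen that coats cartilage fibrils, were the 2 gained with the block. They gave 1.45 ± 0.42 (SE; limma adjusted p = 0.121, but 0.00131 with the block) and 1.24 ± 0.59 (0.376, but 0.00544 with the block), the groups overlapping in both. Their partner chain Col9a3 gave 0.08 ± 0.22. The other 4 detected cartilage markers, Sox9, Matn3, Hapln1 and Cnmd, had differences of -0.02 to 0.21, none of which passed. Without Col2a1 their summed signal was 1533 to 2730 in deletion and 1672 to 2533 in control. The part of cartilage tissue in the samples was not tested. Col16a1, a FACIT chain, rose 2.45-fold (limma adjusted p = 0.00852).

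None of the 14 tested folding and secretion genes passed, and 11 of them had means below control, their median log2 difference being -0.18. The smallest p was that of Xbp1, a transcription factor of the secretory pathway, at -0.53 ± 0.17 (SE; limma adjusted p = 0.165, but 0.032 with the replicate block). Pcolce2, a second enhancer of propeptide removal, had no Present call in control. Its estimated rise was 3.74-fold (log2 1.90 ± 0.32, SE; limma adjusted p = 0.0182). The Pcolce2 call was lost without any single deletion array or control replicate 2, with adjusted p from 0.058 to 0.0817. Of 12 genes of degradation and uptake 1 rose, and 4 with the replicate block. Timp3, an inhibitor of metalloproteinases bound to the matrix, rose 2.08-fold (limma adjusted p = 0.0132). Without control replicate 2 the adjusted p of Timp3 was 0.0953. The 3 gained with the block were the gelatinases Mmp2 (0.83, limma adjusted p = 0.106, but 0.00468 with the block) and Mmp9 (0.87, 0.11, but 0.0199), and the inhibitor Timp4 (1.93, 0.066, but 0.0379), which was Present on 1 control array. None of 7 collagen receptors passed, and the smallest p was that of the integrin Itga10 at 0.57 ± 0.23 (SE; limma adjusted p = 0.27). Of 10 fibril partners 2 rose, and 5 with the replicate block. Those that rose were the elastic-fibre protein Fbln5 by 2.47-fold (limma adjusted p = 0.0132, and 0.0661 without control replicate 2) and Thbs2, a matricellular protein that shapes collagen fibrils, by 3.30-fold (limma adjusted p = 0.00501). The 3 gained with the block were Postn, Sparcl1 and Fbn2. Periostin, Postn, did not pass at 0.75 ± 0.18 (SE; limma adjusted p = 0.0662, but 0.0162 with the replicate block). Sparcl1 gave 0.71 ± 0.25 (SE; 0.201, but 0.00672 with the block), and Fbn2, a microfibril protein, 0.52 ± 0.23 (0.319, but 0.0495).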

How the data were processed

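Per the submitters' processing notes the arrays were summarised with MAS5, and the deposited values are probe set signal intensities on a linear scale, which the authors scaled to a trimmed mean of 500 on each array. Present calls were read from the deposited workbook, where columns are tied to a group only; its 12 other per-sample columns were left aside. RNA had been amplified before labelling, per the labels' protocols, which can compress levels. Software version and genome build of the processing are not given in the sources used here.

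Gene symbols are those of the platform annotation: of 45101 probe sets 34945 had 1 symbol and were used, 932 had several, 9211 none, and 13 of the 64 array controls had a symbol and were left out. Log2 was taken of each signal, with 1 as the lowest value allowed. Probe sets Present on at least 3 of 6 arrays were kept (21614), with the brightest for each gene. The two-sided test was limma's (version 3.58.1, R 4.3.3), by lmFit and then eBayes with its trend option, and p-values were adjusted by Benjamini-Hochberg across 12250 genes; the fit was tested on simulated data. Where a group had no Present call, no array was counted lower than its dimmest probe set that was Present throughout the group. This limit changed neither the fold of Col2a1 nor that of Pcolce2. The number of arrays limits precision. All arrays are labelled biological replicates.

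Replicate numbers come from the titles. Deviations from the group means correlated at 0.485, 0.189 and 0.286 between same-numbered arrays. All exceed 0.1, the set limit for treating them as pairs, so block values stand beside results that change. The labels themselves state no pairing, and differently numbered arrays reached 0.213. The 17 alternatives varied normalization, low signals, the detection filter, the probe set rule, the trend, array weights, the block and the arrays included, and are summarised at the end. Members, lists, tests and rules for naming were chosen with earlier results of these data known; every member is named, with values by array for called members and for the smallest p in each class, and other genes are named if they passed or had the smallest p in their list. Cell type markers other than the lists' counts, the pathway genes that passed with the block alone, Col9a3 and other members' array values were added after their values were seen. Promoter windows are RefSeq's (GRCm38.p6); 28 of 37 tested members had one.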

Additional observations from a re-analysis of the deposited data

How the results depend on the processing

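With the replicate block 1302 genes were called in place of 325, with array quality weights 1106, without both replicate 1 arrays 500 and among genes Present on all 6 arrays 204. Leaving out single arrays gave 94 to 300, with 94 and 188 when control replicates 2 and 3 were left out in turn, and 196 and 148 for deletion replicates 2 and 3. The members that rose numbered 5 with quantile normalization, 9 with array quality weights, 11 with the replicate block, 6 without both replicate 1 arrays and 1 to 4 with single arrays left out, the 1 being Loxl1 without control replicate 2. The members that fell numbered 2 with array quality weights and 2 with the replicate block, and 0 to 0 with single arrays left out. The pathway genes that rose numbered 12, 14 and 10 with array quality weights, the replicate block and without both replicate 1 arrays, and 3 to 6 with single arrays left out, the 3 without control replicate 2. Those that fell numbered 2 with array quality weights and 1 with the replicate block. The causes were not tested. The replicate block changed no call of a member other than the 9 whose block values are given above. No sign change occurred in 27 members over the 17 alternatives. Sign changes occurred in the 10 others, whose uncalled differences in the main fit lay between -0.21 (P4ha1) and 0.12 (Plod1). With median centring Col1a1, Col1a2 and Serpinh1 gave -0.0194, -0.0169 and -0.0444, and with the mean of probe sets Col1a1, Loxl4 and Serpinh1 gave -0.0173, 0.0338 and -0.13. Array quality weights gave Plod1 -0.16 and Serpinh1 -0.00176, and Plod1 was -0.0729 without both replicate 1 arrays. With single arrays left out, the log2 differences spanned -0.12 to 0.19 for Col1a1, -0.14 to 0.15 for Col1a2, -0.25 to 0.0044 for Col5a2, -0.55 to 0.28 for Col18a1, -0.31 to 0.45 for Col12a1, -0.36 to 0.56 for Col17a1, -0.45 to 0.0336 for P4ha1, -0.17 to 0.34 for Plod1, -0.42 to 0.20 for Loxl4 and -0.17 to 0.22 for Serpinh1. Signals near the detection limit, such as those of Col19a1 and the undetected type IV chains, limit what can be said of these genes.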
